A study of Homo sapiens with 64 samples.

Results

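This account follows how the response of BEAS-2B cells to formoterol differed between 6 h and 1 h of exposure. BEAS-2B cells derive from human bronchial epithelium and were immortalised with a hybrid virus. Formoterol is a long-acting agonist of the beta2-adrenoceptor that is inhaled in asthma. The measure is a difference of differences on the log2 scale, namely formoterol-treated minus untreated cells at 6 h, less the same at 1 h. It used 16 of the 64 Affymetrix arrays of the study, 4 in each of 4 groups chosen by their labels. These were cells given 10 nM formoterol for 6 h, untreated cells at 6 h, cells given 10 nM formoterol for 1 h and untreated cells at 1 h. All had been kept overnight without serum, and the labels mention no vehicle for the untreated cells. The other arrays held cells given formoterol or nothing for 2 or 18 h, and cells given 100 nM budesonide, a glucocorticoid, with or without formoterol. The 4 replicates of a group are independent determinations by the labels. All p-values rest on the spread between replicates, estimated within all 16 groups of the 64 arrays. With 4 arrays a group the precision is limited. Group means are given ± SD over the 4 arrays, and effects and contrasts ± SE.

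The beta2-adrenoceptor couples to the stimulatory G protein Gs and adenylyl cyclase, which makes cyclic AMP. Cyclic AMP activates protein kinase A, which phosphorylates the transcription factor CREB, and CREB binds cyclic AMP response elements (CRE) in promoters. In airway epithelium such agonists are known to raise immediate early genes quickly. Phosphodiesterases, receptor phosphorylation and induced repressors are known to limit such responses.

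Promoters of 4 of the genes described below are shown because these genes had among the largest early or late effects. Each window is the 250 bases before the gene's single start in the RefSeq promoter table of build GRCh38.p14, read 5′ to 3′ on the gene's strand. Capitals mark CRE letters, the short site TGACG or its reverse complement CGTCA, or the full site TGACGTCA, which holds a short site on each strand.
NR4A3 (chr9:99821635-99821884, + strand): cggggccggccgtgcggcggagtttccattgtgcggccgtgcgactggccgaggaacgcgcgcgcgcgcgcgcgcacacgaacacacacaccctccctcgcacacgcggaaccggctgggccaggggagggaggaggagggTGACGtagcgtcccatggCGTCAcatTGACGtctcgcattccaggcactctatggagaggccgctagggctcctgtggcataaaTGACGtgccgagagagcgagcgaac
IL6 (chr7:22726950-22727199, + strand): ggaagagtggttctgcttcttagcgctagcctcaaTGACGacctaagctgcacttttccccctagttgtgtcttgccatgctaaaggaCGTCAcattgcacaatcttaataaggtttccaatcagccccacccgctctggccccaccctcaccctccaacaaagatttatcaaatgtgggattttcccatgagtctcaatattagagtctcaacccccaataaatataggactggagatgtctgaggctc
PDE7B (chr6:135851451-135851700, + strand): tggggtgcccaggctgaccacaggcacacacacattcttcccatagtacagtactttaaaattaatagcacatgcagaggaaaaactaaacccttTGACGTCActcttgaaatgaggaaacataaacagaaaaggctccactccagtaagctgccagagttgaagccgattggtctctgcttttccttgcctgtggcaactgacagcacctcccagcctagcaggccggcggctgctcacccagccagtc
SMOC1 (chr14:69879166-69879415, + strand): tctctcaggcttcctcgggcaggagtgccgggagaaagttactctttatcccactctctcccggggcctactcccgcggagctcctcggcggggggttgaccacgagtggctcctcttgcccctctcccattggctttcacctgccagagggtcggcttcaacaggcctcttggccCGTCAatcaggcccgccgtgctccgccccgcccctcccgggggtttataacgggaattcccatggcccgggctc
The window of NR4A3, an early gene, held 4 short sites, and that of IL6, also early, held 2. The window of PDE7B, a late gene, held 1 full site 155 bases before the start, and that of SMOC1, also late, held 1 short site. Of the 40 genes named by rule, 33 had a promoter in the table, and PDE7B alone among them held a full site. All 4 genes shown held a site, but other named genes varied. No window of NR4A1, SGK1, BHLHE40, TXNIP, NCKAP5 or STEAP4 held a short site, while windows of CXCL2, ZNF331, RGS2, RHOB and CFAP251 did.

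Across all 18132 genes tested, 14425 had a promoter in the table, with 20403 windows because a gene can have several starts. A short site lay in 24.3% of these windows and a full site in 2.07%. Among genes that formoterol raised at 1 h with a smaller effect at 6 h, 65 of 83 had a promoter, and 40 of their 115 windows (34.8%) held a short site and 5 (4.35%) a full site. Among genes raised late, 121 of 143 had a promoter, and 43 of 191 windows (22.5%) held a short site and 5 (2.62%) a full site. Genes lowered early had a short site in 7 of 23 windows (30.4%) and genes lowered late in 39 of 193 (20.2%), and a full site was found in neither group. Over the 35116 windows of the whole table, 21.2% held a short site and 1.65% a full site. Windows of a gene can overlap, and these shares describe letters in the windows without a test.

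The formoterol effect differed between 6 h and 1 h in 424 of 18132 genes (2.34% of those tested) at a limma Benjamini-Hochberg adjusted p under 0.05. The contrast was above 0 in 203 of them (1.12%) and below 0 in 221 (1.22%), and 119 of the 424 differed at least 2-fold. Its median over all genes was 0.01. The effect passed the test in 873 genes (4.81%) at 6 h, of which 500 (2.76%) were higher and 373 (2.06%) lower in formoterol-treated cells. At 1 h it passed in 243 genes (1.34%), of which 185 (1.02%) were higher and 58 (0.32%) lower. A called effect of at least 2-fold was seen in 104 genes at 6 h and in 86 at 1 h.

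The 424 genes were sorted by whether the effect passed the test at each time. In 89 it passed at 1 h alone (early transient), and in 20 it passed at both times, in the same direction and smaller at 6 h (attenuated). In 260 it passed at 6 h alone (delayed), and in 8 it passed at both times and was larger at 6 h (growing). In 9 genes it passed at both times in opposite directions (reversed), and in 38 it passed at neither time. In 53 further genes the effect passed at both times while its difference did not. Since the sorting uses the arms of the contrast, these counts describe the called genes and are no test of their own. The kind rests on 3 thresholds, and of the 40 genes named by rule 29 to 40 kept theirs under 26 other settings. Genes were named by rule only if treated and untreated arrays did not overlap at the time of the larger effect. Their separation at that time was thus fixed by the rule and is no support. Formoterol-treated cells themselves differed between 6 h and 1 h in 403 of the 424 (9.95% of all genes passed that comparison), and untreated cells did so in 12 (0.21% of all genes).

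**Figure D1:**
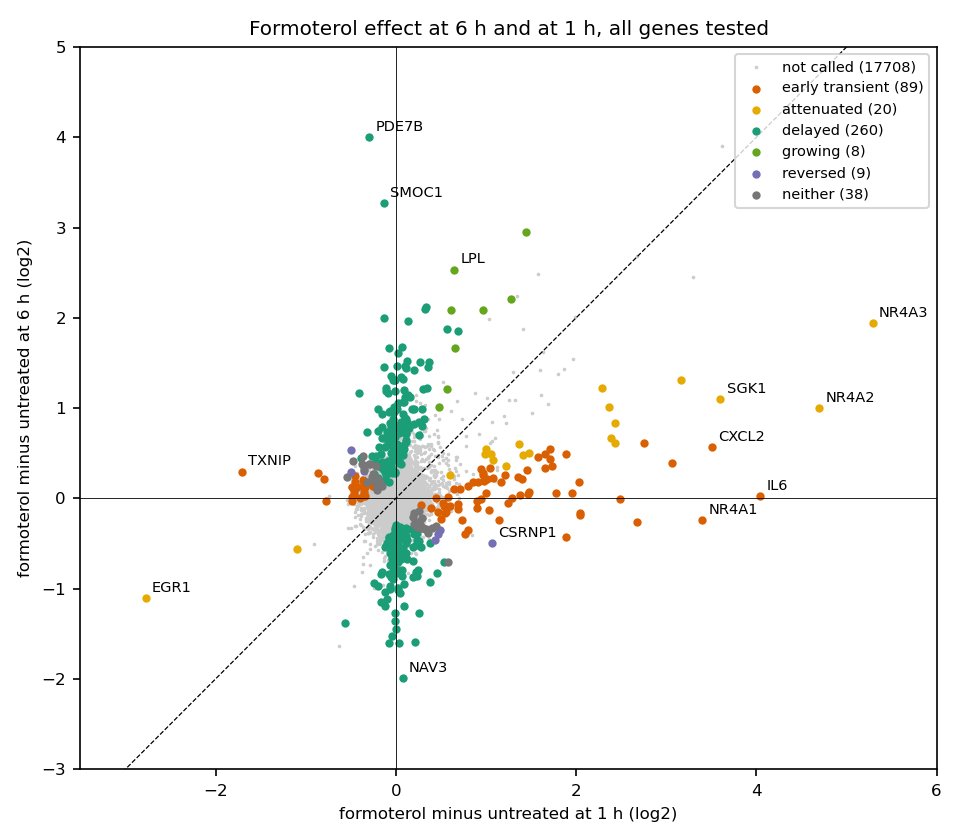
Formoterol effect at 6 h (y axis) against the effect at 1 h (x axis), both log2 formoterol minus untreated, for the 18132 genes tested. Each point is a gene, colours mark the kinds of the 424 called genes and the dashed line marks equal effects; early genes such as NR4A3 and IL6 lie to the right, and the late genes PDE7B and SMOC1 lie straight above 0.

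Genes of the early transient kind were mostly raised, 65 of 89 at 1 h, with 24 lowered. At 2 h the effect passed the test in the same direction in 66 of the 89 (4.6% of all genes passed at 2 h). At 18 h it passed in 2, of which 1 kept the direction (1.11% of all genes passed). In 35 of the 89 the effect was larger at 2 h than at both 1 h and 6 h. At 6 h it was within 0.5 log2 units of 0 in 86. IL6 encodes interleukin 6, an inflammatory cytokine whose promoter is known to carry a CRE. At 6 h IL6 had log2 values of 6.04, 5.95, 5.84 and 5.53 in formoterol-treated cells, against 6.07, 6.10, 5.32 and 5.77 in untreated cells. At 1 h its values were 10.19, 10.0, 10.16 and 9.37 in formoterol-treated cells, against 6.16, 5.95, 5.91 and 5.53 in untreated cells. The groups overlapped at 6 h, and all 4 formoterol arrays lay above all 4 untreated arrays at 1 h. The effect on IL6 was 0.03 ± 0.19 (SE) at 6 h and 4.04 ± 0.19 at 1 h, a 16.5-fold rise, and the contrast was -4.02 ± 0.27 (limma adjusted p = 1.61e-17).

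NR4A1, an orphan nuclear receptor and immediate early gene, had log2 values of 5.30, 5.65, 4.95 and 4.85 in formoterol-treated cells, against 5.61, 5.37, 5.25 and 5.47 in untreated cells at 6 h. At 1 h the values were 9.55, 9.36, 9.64 and 9.29 in formoterol-treated cells, against 6.05, 6.18, 5.98 and 6.04 in untreated cells. Formoterol arrays stood clear of untreated ones at 1 h and overlapped with them at 6 h. The effect was -0.24 ± 0.31 at 6 h and 3.40 ± 0.31 at 1 h, with a contrast of -3.64 ± 0.44 (adjusted p = 1.69e-08). The 7 probe sets of NR4A1 all gave a contrast below 0, between -3.64 and -0.12, and the 2 of IL6 gave -4.02 and -0.93, so the size depends on the probe set.

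CXCL2, a chemokine that draws neutrophils, had log2 values of 4.12, 4.34, 4.0 and 3.90 in formoterol-treated cells, against 3.52, 3.46, 3.44 and 3.68 in untreated cells at 6 h. At 1 h they were 7.54, 7.42, 6.68 and 7.0 in formoterol-treated cells, against 3.79, 3.60, 3.82 and 3.41 in untreated cells. The groups did not overlap at either time, yet the 6 h effect of 0.56 ± 0.20 missed the threshold (adjusted p = 0.0972), against 3.51 ± 0.20 at 1 h. SNAI2, a transcriptional repressor of epithelial genes also called Slug, had an effect of -0.26 ± 0.20 at 6 h and 2.67 ± 0.20 at 1 h. For the zinc finger gene ZNF331 these effects were 0.39 ± 0.15 and 3.07 ± 0.15, and its arrays did not overlap at either time. BHLHE40, a repressor that acts in the circadian clock, had -0.01 ± 0.25 at 6 h and 2.48 ± 0.25 at 1 h. The contrasts of these 4 genes lay between -2.94 and -2.49.

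TXNIP had the largest contrast among the genes lowered early. It encodes a protein that binds thioredoxin and restrains glucose uptake. At 6 h TXNIP had log2 values of 10.73, 10.64, 10.72 and 10.81 in formoterol-treated cells, against 10.46, 10.28, 10.33 and 10.64 in untreated cells. The 1 h values were 8.81, 8.64, 8.55 and 9.40 in formoterol-treated cells, against 10.55, 10.58, 10.43 and 10.68 in untreated cells. Every formoterol array was below every untreated array at 1 h, and at 6 h the groups overlapped. The effect was 0.30 ± 0.16 at 6 h and -1.71 ± 0.16 at 1 h, when TXNIP was 3.27-fold lower with formoterol, and the contrast was 2.01 ± 0.23 (adjusted p = 3.38e-09). HYLS1, a centriole protein needed for cilia, had effects of 0.28 ± 0.10 at 6 h and -0.87 ± 0.10 at 1 h. DUSP6, a phosphatase of the kinase ERK, had 0.21 ± 0.16 at 6 h and -0.79 ± 0.16 at 1 h. DUSP6 also averaged 6.39 ± 0.14 (SD) in untreated cells at 6 h and 6.92 ± 0.14 (SD) in untreated cells at 1 h. That difference of -0.53 ± 0.16 (SE) missed the threshold (limma adjusted p = 0.254).

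**Figure D2:**
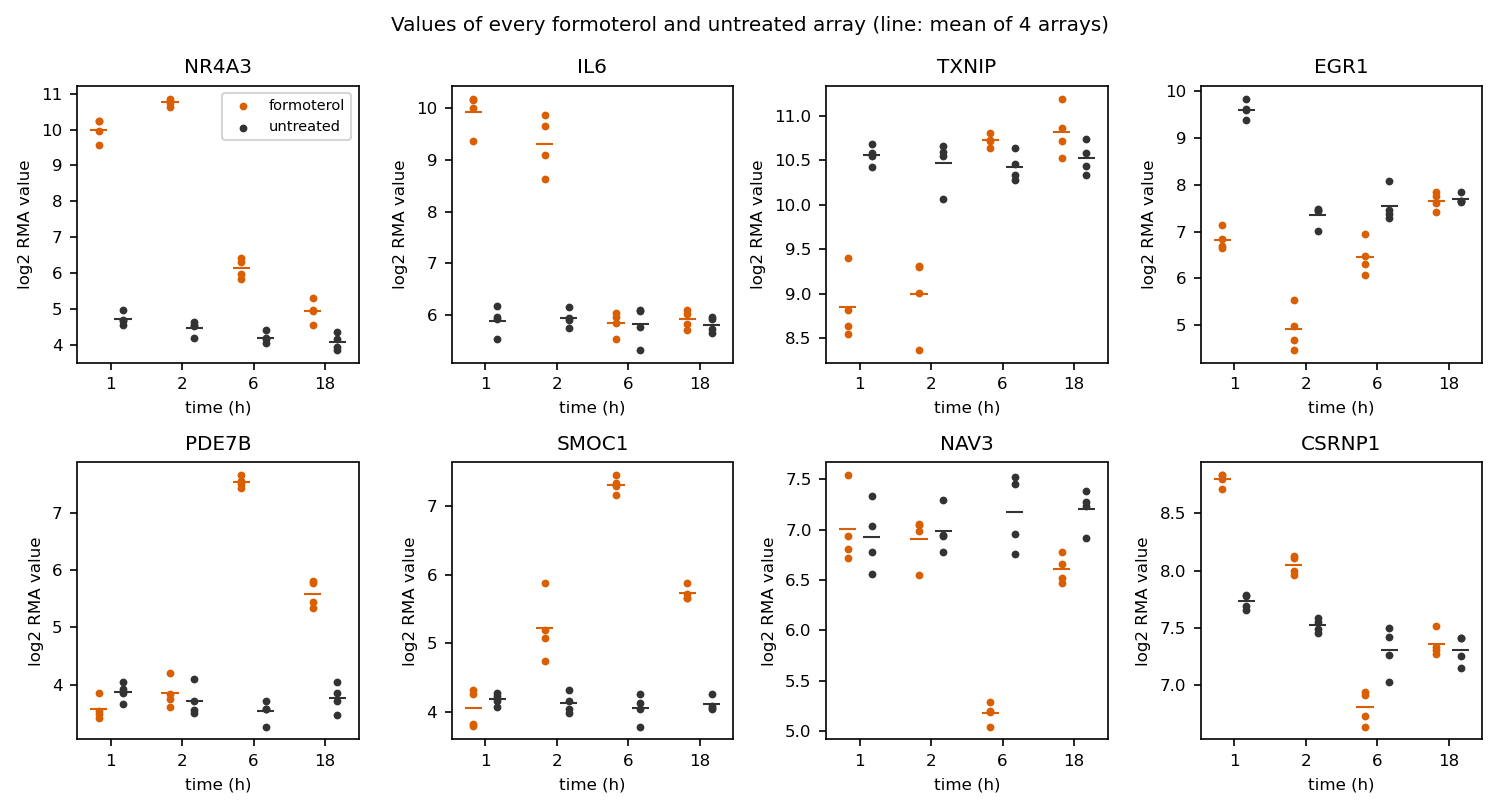
Log2 RMA values (y axis) of 8 genes in every formoterol-treated and untreated array at 1, 2, 6 and 18 h (x axis); points are arrays and lines the means of 4. NR4A3 and IL6 stand clear of untreated cells at 1 h and 2 h, PDE7B at 6 h and 18 h, and CSRNP1 lies above untreated cells at 1 h and below them at 6 h.

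Attenuated genes kept an effect at 6 h that passed the test but was smaller. Of the 20, 18 were raised and 2 were lowered, all 20 also passed at 2 h in the same direction, and 5 passed at 18 h. In 10 of the 20 the effect was larger at 2 h than at both 1 h and 6 h. NR4A3, an orphan nuclear receptor related to NR4A1 and with 4 short CRE sites in its window, had log2 values of 6.43, 6.30, 5.83 and 5.97 in formoterol-treated cells, against 4.40, 4.17, 4.03 and 4.14 in untreated cells at 6 h. After 1 h the arrays gave 9.57, 10.24, 10.23 and 9.95 in formoterol-treated cells, against 4.54, 4.67, 4.66 and 4.97 in untreated cells. The groups were separate at both times. The effect on NR4A3 was 5.29 ± 0.16 at 1 h, 6.28 ± 0.16 at 2 h, 1.94 ± 0.16 at 6 h and 0.87 ± 0.16 at 18 h, so it was 3.84-fold higher at 6 h and 39.1-fold at 1 h. Its contrast was -3.35 ± 0.22 (adjusted p = 4.68e-18).

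NR4A2, the third receptor of that family, had log2 values of 4.65, 4.95, 4.50 and 4.74 in formoterol-treated cells, against 3.94, 3.47, 4.02 and 3.41 in untreated cells at 6 h. The values at 1 h were 8.96, 8.88, 8.93 and 8.23 in formoterol-treated cells, against 4.28, 3.74, 4.34 and 3.85 in untreated cells. Both times showed no overlap, and the effect was 1.0 ± 0.30 at 6 h (adjusted p = 0.0343) and 4.70 ± 0.30 at 1 h. SGK1, a kinase that regulates ion channels and is also induced by glucocorticoids, had log2 values of 9.86, 9.77, 10.11 and 9.85 in formoterol-treated cells, against 8.56, 8.78, 8.97 and 8.88 in untreated cells at 6 h. At 1 h they were 12.51, 12.56, 12.69 and 12.49 in formoterol-treated cells, against 8.86, 8.92, 9.07 and 8.99 in untreated cells. The arrays of SGK1 were separate at both times, the effect was 1.10 ± 0.12 at 6 h and 3.60 ± 0.12 at 1 h, and the contrast was -2.50 ± 0.16 (adjusted p = 4.68e-18).

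RGS2, which speeds the switching off of Gq proteins, belonged to the same kind with effects of 1.31 ± 0.11 at 6 h and 3.16 ± 0.11 at 1 h. The small GTPase RHOB had 0.61 ± 0.17 at 6 h and 2.44 ± 0.17 at 1 h. PPP1R3C, a subunit that directs protein phosphatase 1 to glycogen, had 0.67 ± 0.12 at 6 h and 2.39 ± 0.12 at 1 h. The groups of these 3 genes overlapped at neither time.

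EGR1, an immediate early transcription factor induced by growth factors, was lowered at both times. At 6 h EGR1 had log2 values of 6.47, 6.95, 6.31 and 6.07 in formoterol-treated cells, against 8.07, 7.47, 7.38 and 7.30 in untreated cells. The 1 h values were 7.15, 6.83, 6.65 and 6.69 in formoterol-treated cells, against 9.84, 9.39, 9.59 and 9.61 in untreated cells. No arrays overlapped at either time, the effect was -1.10 ± 0.19 at 6 h and -2.78 ± 0.19 at 1 h, and the contrast was 1.67 ± 0.28 (adjusted p = 2.37e-05). Here untreated cells moved more than treated ones. Untreated cells at 6 h minus untreated cells at 1 h gave -2.05 ± 0.19 (adjusted p = 9.13e-11), while formoterol-treated cells at 6 h minus those at 1 h gave -0.38. The 6 probe sets of EGR1 ranged from -0.19 to 1.74 in the contrast, 5 of them above 0. JUN, a subunit of the AP-1 factor, was the other lowered gene of this kind, with -0.56 ± 0.10 at 6 h and -1.10 ± 0.10 at 1 h.

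Untreated cells at 6 h differed from those at 1 h in 38 genes (0.21%), 12 higher and 26 lower, and 12 of these were among the 424. In 17 of the 424 the untreated cells moved more between the times than the formoterol-treated cells did. After EGR1, the largest such movement was in TFRC, the transferrin receptor, at -0.98 in untreated cells and -0.07 in formoterol-treated cells, and its formoterol effect at 6 h was 1.21.

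Delayed genes were the most numerous kind, with 143 raised and 117 lowered at 6 h, 65 of them by a contrast of at least 2-fold. At 2 h the effect already passed in 73, in the direction seen at 6 h in 67, and at 18 h it passed in 52. PDE7B, a phosphodiesterase that degrades cyclic AMP and the gene whose promoter window held a full CRE, had the largest contrast. At 6 h PDE7B had log2 values of 7.56, 7.50, 7.44 and 7.66 in formoterol-treated cells, against 3.72, 3.58, 3.27 and 3.58 in untreated cells. After 1 h the arrays gave 3.41, 3.54, 3.49 and 3.85 in formoterol-treated cells, against 3.85, 3.66, 4.05 and 3.92 in untreated cells. All formoterol arrays were above all untreated arrays at 6 h, and at 1 h the groups overlapped. The effect on PDE7B was -0.30 ± 0.17 at 1 h, 0.13 ± 0.17 at 2 h, 4.0 ± 0.17 at 6 h and 1.82 ± 0.17 at 18 h, a 16-fold rise at 6 h. The contrast was 4.30 ± 0.23 (adjusted p = 2.07e-21), and the 3 probe sets of the gene gave between 0.07 and 4.30.

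SMOC1, a secreted calcium-binding protein of the extracellular matrix, had log2 values of 7.30, 7.45, 7.17 and 7.33 in formoterol-treated cells, against 4.04, 4.12, 3.78 and 4.25 in untreated cells at 6 h. The values at 1 h were 3.82, 4.32, 3.79 and 4.26 in formoterol-treated cells, against 4.07, 4.16, 4.23 and 4.27 in untreated cells. The groups were separate at 6 h and mixed at 1 h. The effect on SMOC1 was -0.14 ± 0.16 at 1 h, 1.10 ± 0.16 at 2 h, 3.27 ± 0.16 at 6 h and 1.62 ± 0.16 at 18 h, and it passed the test at 2 h, which that on PDE7B did not (adjusted p = 9.88e-07 against 0.891). Its contrast was 3.40 ± 0.23 (adjusted p = 1.82e-17).

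NHS, the gene of Nance-Horan syndrome, which acts on the actin cytoskeleton, had an effect of 1.99 ± 0.20 at 6 h and -0.13 ± 0.20 at 1 h. For NCKAP5 the effects were 1.97 ± 0.17 and 0.13 ± 0.17. CFAP251, a component of motile cilia, had 2.12 ± 0.10 at 6 h and 0.33 ± 0.10 at 1 h, and its effect of 1.31 ± 0.10 at 2 h passed the test. STEAP4, a metalloreductase, had 2.10 ± 0.19 at 6 h and 0.32 ± 0.19 at 1 h. Its untreated cells averaged 2.90 ± 0.17 at 6 h, under the lower quartile of the deposited values, 3.02. The arrays of these 4 genes did not overlap at 6 h, as the naming rule required.

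NAV3, which binds microtubules, had the largest contrast among the genes lowered late. Its log2 values at 6 h were 5.29, 5.05, 5.19 and 5.20 in formoterol-treated cells, against 7.46, 6.95, 6.76 and 7.52 in untreated cells. At 1 h they were 6.80, 6.72, 6.94 and 7.54 in formoterol-treated cells, against 7.04, 6.56, 6.77 and 7.34 in untreated cells. The formoterol arrays lay below all untreated arrays at 6 h and among them at 1 h. The effect was -1.99 ± 0.20 at 6 h and 0.07 ± 0.20 at 1 h, when it did not pass, so NAV3 was 3.97-fold lower with formoterol at 6 h, and the contrast was -2.06 ± 0.29 (adjusted p = 5.78e-07).

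ANKRD1, an ankyrin repeat protein known as a target of the YAP coactivator, had effects of -1.59 ± 0.20 at 6 h and 0.21 ± 0.20 at 1 h. F3, the tissue factor that starts blood clotting, was an abundant transcript. It averaged 10.13 ± 0.17 in formoterol-treated cells and 11.40 ± 0.21 in untreated cells at 6 h (SD, n = 4 each), and 11.87 ± 0.15 in formoterol-treated cells and 11.62 ± 0.30 in untreated cells at 1 h. HDAC9, a class IIa histone deacetylase, had -1.60 ± 0.14 at 6 h and 0.03 ± 0.14 at 1 h, and it still had -1.05 ± 0.14 at 18 h. The 5 probe sets of HDAC9 ran from -1.64 to 0.07. SLCO4C1, an organic anion transporter, had -1.45 ± 0.14 at 6 h and 0.0 ± 0.14 at 1 h. GASK1B, a Golgi-associated protein, had -1.60 ± 0.30 at 6 h and -0.08 ± 0.30 at 1 h, with replicates that ranged over more than 1 log2 unit in each 6 h group. Its contrast of -1.52 ± 0.42 (adjusted p = 0.0315) was no longer called in 11 of 26 other settings.

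**Figure D3:**
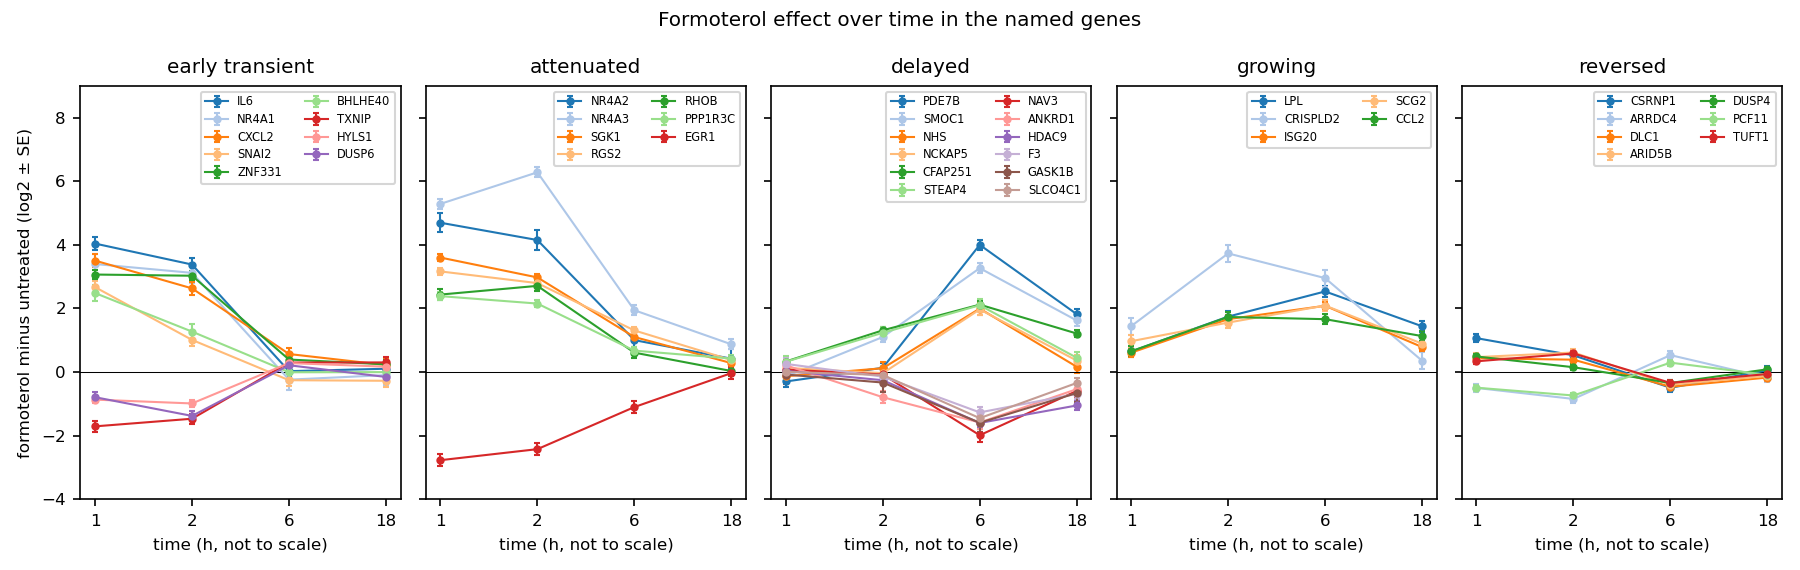
Formoterol effect (y axis, log2 formoterol minus untreated ± SE, n = 4 arrays per group) of the 40 genes named by rule at 1, 2, 6 and 18 h (x axis, not to scale), in a panel for each kind. Early transient genes are near 0 by 6 h, delayed genes are largest at 6 h, and reversed genes cross 0 between 2 h and 6 h with effects that stay small.

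Growing genes were 8, all raised, and 6 of them also passed the test at 18 h. LPL, the lipoprotein lipase that frees fatty acids from triglycerides, had log2 values of 7.36, 6.49, 6.84 and 7.59 in formoterol-treated cells, against 4.68, 4.36, 4.46 and 4.66 in untreated cells at 6 h. The 1 h values were 5.06, 5.32, 5.08 and 5.51 in formoterol-treated cells, against 4.98, 4.43, 4.35 and 4.62 in untreated cells. Treated and untreated arrays were separate at both times, with an effect of 2.53 ± 0.18 at 6 h and 0.65 ± 0.18 at 1 h, and a contrast of 1.89 ± 0.25 (adjusted p = 1.4e-07). CCL2, a chemokine that draws monocytes, had log2 values of 10.70, 10.42, 10.87 and 10.47 in formoterol-treated cells, against 8.77, 9.24, 8.80 and 9.02 in untreated cells at 6 h. After 1 h the arrays gave 9.64, 9.73, 9.42 and 9.48 in formoterol-treated cells, against 8.81, 9.08, 8.83 and 8.94 in untreated cells. CCL2 arrays did not overlap either, with effects of 0.65 ± 0.16 at 1 h, 1.73 ± 0.16 at 2 h, 1.66 ± 0.16 at 6 h and 1.13 ± 0.16 at 18 h.

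ISG20, an exonuclease, had an effect of 2.08 ± 0.13 at 6 h and 0.61 ± 0.13 at 1 h. SCG2, secretogranin II, had 2.09 ± 0.18 at 6 h and 0.97 ± 0.18 at 1 h, and 1 of its formoterol arrays at 1 h, at 3.41, lay within the untreated range. CRISPLD2, a secreted protein that glucocorticoids also induce, had 2.95 ± 0.27 at 6 h and 1.44 ± 0.27 at 1 h, with a wide spread at 1 h (6.62 ± 0.74, SD, in formoterol-treated cells). Its effect was largest at 2 h, at 3.73 ± 0.27. Of its 5 probe sets 3 had a contrast above 0, and the mean of all 5 gave a contrast of 0.38, which was not called.

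Reversed genes were 9, and 2 of them had a contrast of at least 2-fold. CSRNP1, a nuclear protein of the immediate early kind, had the largest contrast. At 6 h its log2 values were 6.64, 6.94, 6.92 and 6.74 in formoterol-treated cells, against 7.50, 7.43, 7.27 and 7.03 in untreated cells. The values at 1 h were 8.83, 8.83, 8.71 and 8.80 in formoterol-treated cells, against 7.79, 7.69, 7.78 and 7.66 in untreated cells. All formoterol arrays lay below the untreated ones at 6 h and above them at 1 h. The effect on CSRNP1 was 1.06 ± 0.12 at 1 h, 0.52 ± 0.12 at 2 h, -0.50 ± 0.12 at 6 h and 0.05 ± 0.12 at 18 h, and the contrast was -1.56 ± 0.17 (adjusted p = 1.03e-09).

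ARRDC4, an alpha-arrestin related to TXNIP, ran the other way. Its log2 values at 6 h were 8.75, 8.71, 8.86 and 8.80 in formoterol-treated cells, against 8.43, 8.12, 8.11 and 8.34 in untreated cells. At 1 h they were 7.93, 7.61, 7.81 and 8.26 in formoterol-treated cells, against 8.47, 8.37, 8.18 and 8.58 in untreated cells. The formoterol arrays lay above the untreated ones at 6 h, and at 1 h 1 treated array reached into the untreated range. The effect was 0.53 ± 0.13 at 6 h and -0.50 ± 0.13 at 1 h, with a contrast of 1.03 ± 0.18 (adjusted p = 4.82e-05).

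Of the other reversed genes, 4 were lowered at 6 h and raised at 1 h. DLC1 had -0.46 ± 0.10 at 6 h and 0.43 ± 0.10 at 1 h. DUSP4, a phosphatase of MAP kinases, had -0.35 ± 0.09 and 0.49 ± 0.09, and the DNA-binding protein ARID5B -0.40 ± 0.12 and 0.47 ± 0.12 at those times. TUFT1, tuftelin, had -0.34 ± 0.08 at 6 h and 0.34 ± 0.08 at 1 h. PCF11, a factor of transcript cleavage and termination, was raised at 6 h (0.29 ± 0.09) and lowered at 1 h (-0.49 ± 0.09), as were the zinc finger genes ZNF182 and ZNF45, with 0.30 and 0.20 at 6 h and -0.36 and -0.22 at 1 h. In 7 of the 9 the effect at 2 h passed the test with the sign of 1 h, and at 18 h it passed in none of them. With each gene taken as the mean of its probe sets, the contrasts of ARID5B, TUFT1 and PCF11 were -0.51, -0.50 and 0.42 and no longer called, and 2 genes counted as reversed.

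Other genes had an effect at both times with no called difference. In 53 genes the effect passed at both times and the contrast did not, always with the same sign, 50 raised and 3 lowered. This does not show that the effect stayed the same, since the 95% interval of the contrast excluded 0 in 16 of the 53, above 0 in 5 and below 0 in 11, before adjustment. The long non-coding RNA LINC00473, a known CREB target, had log2 values of 7.98, 8.19, 8.25 and 8.20 in formoterol-treated cells, against 4.17, 3.87, 4.27 and 4.69 in untreated cells at 6 h. At 1 h they were 7.62, 7.92, 8.59 and 7.99 in formoterol-treated cells, against 4.50, 4.01, 4.42 and 4.70 in untreated cells. Its groups were far apart at both times, the effect was 3.91 ± 0.20 at 6 h and 3.62 ± 0.20 at 1 h, and the contrast was 0.29 with a 95% interval of -0.28 to 0.85. PDE4D, a phosphodiesterase of cyclic AMP, had effects of 2.0 ± 0.14 at 6 h and 1.98 ± 0.14 at 1 h, with a contrast of 0.02 (-0.37 to 0.41). For PDE4B the effects were 1.42 ± 0.22 and 1.60 ± 0.22, with a contrast of -0.18 (-0.80 to 0.44). Each 95% interval holds the differences compatible with 4 arrays per group, before adjustment, and is that of 1 probe set. It is no limit of detection. The 2 probe sets of LINC00473 gave 0.29 and 0.87, and the 7 of PDE4D gave -0.21 to 0.75, so their highest contrasts lie outside these intervals. IL11, a cytokine, had effects of 2.45 at 6 h and 3.30 at 1 h and a contrast of -0.85 that did not pass (adjusted p = 0.128).

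The gene lists that follow are to be read against the 2.34% of all genes called in the contrast, 1.12% above 0 and 1.22% below 0. The lists and their members were chosen with earlier results of these data known, so a share above these values is no independent support. A gene can be counted in several lists, as DUSP1, RGS2, IL6, BHLHE40 and NFIL3 were, so the shares are not separate results. The machinery of the receptor pathway showed no called change in the contrast. None of 30 measured genes of the receptor, G protein, cyclase, kinase A and CREB group was called, and their median contrast was -0.01, against 0.01 over all genes. The effect itself passed in 3 of them at 6 h and 1 at 1 h, all raised. Of 16 phosphodiesterase genes 3 were called, all above 0 and all delayed. Beside PDE7B, PDE3A averaged 3.88 ± 0.31 in formoterol-treated cells and 3.15 ± 0.16 in untreated cells at 6 h and 3.13 ± 0.36 in formoterol-treated cells and 3.45 ± 0.17 in untreated cells at 1 h, with a contrast of 1.05 ± 0.21. The untreated means of PDE3A lay near the lower quartile of all values, 3.02, and its 3 probe sets gave contrasts from 0.09 to 1.05. PDE8A had a contrast of 0.43 ± 0.09, and the median of the family was 0.06. Among 16 regulators of G-protein signalling RGS2 alone was called, with a family median of 0.03.

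Among 23 immediate early transcription factors outside the NR4A family, 6 were called, 2 above 0 (EGR1 and JUN, lowered early) and 4 below 0 (ATF3, MYC, KLF4 and BHLHE40, raised early). Their median contrast was -0.05. ATF3, a stress-induced repressor, had effects of 0.06 ± 0.12 at 6 h and 1.95 ± 0.12 at 1 h. MYC, a driver of cell growth, had 0.0 ± 0.08 and 1.29 ± 0.08, and the epithelial factor KLF4 0.18 ± 0.24 and 2.04 ± 0.24. All 3 NR4A receptors were called below 0, with a median of -3.64. FOS and FOSB, classical AP-1 genes, had effects of 0.08 and 0.02 at 6 h and 0.13 and 0.03 at 1 h, which did not pass. These values are of the probe set of highest mean, and the 4 probe sets of FOS gave contrasts from -0.99 to -0.05 and the 2 of FOSB gave -0.73 and -0.01.

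Of 27 genes listed as targets of cyclic AMP and CREB, 10 (37.0%, against 2.34% of all genes) were called. Of these, 8 were below 0 and 2 above 0, and the median contrast of the list was -0.31. GEM, a small GTPase, had effects of -0.19 ± 0.19 at 6 h and 2.05 ± 0.19 at 1 h. BDNF, a neurotrophin, kept 0.51 ± 0.13 at 6 h of 1.48 ± 0.13 at 1 h. CITED2, NFIL3, RGS2, DUSP1 and IL6 were also called below 0. ID2, an inhibitor of helix-loop-helix factors, was below 0 and lowered late, with -0.82 ± 0.17 at 6 h, against 0.45 ± 0.17 at 1 h, which did not pass. The genes above 0 were the kinase SIK2, which acts on CREB coactivators, with 0.63 ± 0.10 at 6 h and 0.11 ± 0.10 at 1 h, and FAM167A, with 1.87 ± 0.24 and 0.57 ± 0.24.

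Cytokines, chemokines and growth factors had 9 called of 33 (27.3%), 7 below 0 and 2 above 0, with a median of -0.23. Beside IL6 and CXCL2, the interleukin 6 relative LIF had -0.43 ± 0.16 at 6 h and 1.89 ± 0.16 at 1 h, and the angiogenic factor VEGFA -0.08 ± 0.14 and 0.60 ± 0.14. A further 3 below 0 passed the test at 6 h and not at 1 h. These were CXCL8, the neutrophil chemokine interleukin 8, with -0.93 ± 0.18 at 6 h and 0.37 ± 0.18 at 1 h, HBEGF, a ligand of the EGF receptor, with -0.71 ± 0.15 and 0.54 ± 0.15, and FGF5 with -1.38 ± 0.17 and -0.56 ± 0.17. The effect on FGF5 was -1.55 ± 0.17 at 2 h, lower than at 6 h. For HBEGF, untreated cells at 6 h minus untreated cells at 1 h gave -0.85 ± 0.15 (adjusted p = 0.0014). The monocyte chemokines CCL2 and CCL7 were above 0. CCL7 averaged 4.11 ± 0.10 in formoterol-treated cells and 2.99 ± 0.23 in untreated cells at 6 h, near the lower quartile of all values.

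MAP kinase phosphatases and feedback inhibitors had 5 called of 17 (29.4%), 4 below 0 and DUSP6 above 0, with a median of -0.29. DUSP1, which switches off p38 and JNK and is also induced by glucocorticoids, had 0.84 ± 0.09 at 6 h and 2.43 ± 0.09 at 1 h. DUSP5 had -0.35 ± 0.14 and 0.80 ± 0.14, and DUSP14 was lowered late (-0.54 ± 0.07 at 6 h). Of 15 inhibitors of cytokine and NF-kappaB signalling NFKBIZ and TNFAIP3 were called, both below 0, with a median of -0.18. TNFAIP3, also named A20, had -0.40 ± 0.15 at 6 h and 0.76 ± 0.15 at 1 h. Genes known to be induced by glucocorticoids had 7 called of 24, 6 below 0 and CRISPLD2 above 0, with a median of -0.14. Among them, the stress gene DDIT4, an inhibitor of mTORC1, had 1.22 ± 0.15 at 6 h and 2.29 ± 0.15 at 1 h, and KLF9 0.34 ± 0.14 and 1.66 ± 0.14.

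Genes of cholesterol synthesis and uptake moved one way where they were called. Of 16 measured, 7 (43.8%, against 1.22% of all genes) were called below 0 and none above 0, every one of the 7 was delayed, and 15 of the 16 contrasts were negative. The median contrast was -0.47. At 6 h 11 passed as lowered, against 2.06% of all genes, while none passed at 1 h, against 1.34% of all genes. HMGCS1, the synthase that makes HMG-CoA, averaged 11.45 ± 0.11 in formoterol-treated cells and 12.03 ± 0.13 in untreated cells at 6 h (SD, n = 4 each), and 11.98 ± 0.07 in formoterol-treated cells and 11.94 ± 0.08 in untreated cells at 1 h, with a contrast of -0.62 ± 0.16. MVK, mevalonate kinase, had -0.67 ± 0.08 at 6 h and -0.04 ± 0.08 at 1 h. MSMO1, a methylsterol oxidase, had -0.55 ± 0.06 and 0.08 ± 0.06. IDI1, SQLE, SC5D and INSIG1, the last of which retains the regulator of this pathway in the endoplasmic reticulum, had effects between -0.46 and -0.30 at 6 h. No effect of the 7 reached 2-fold. Their arrays did not overlap at 6 h, which is no further support, since these genes had passed the test there.

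Other lists had 2 to 4 called genes each. Cell division genes had 2 of 32 (6.25%, against 2.34% of all genes), cyclin D1 (CCND1) below 0 with -1.11 ± 0.16 at 6 h and -0.10 ± 0.16 at 1 h, and cyclin E1 (CCNE1) above 0 with 0.46 ± 0.12 and -0.26 ± 0.12. Matrix genes had 4 of 27 (14.8%), SMOC1 above 0 and PLAUR, CCN1 and CCN2 below 0. The list of stress and unfolded protein response genes had 3 of 18 (16.7%), TXNIP and ARRDC4 above 0 and ARRDC3 below 0. These 3 are alpha-arrestin genes, so related genes differed in direction. No heat shock or unfolded protein response gene of the list was called. ARRDC3 had 0.55 ± 0.19 at 6 h and 1.71 ± 0.19 at 1 h, the opposite of TXNIP in sign at 1 h. Clock genes had BHLHE40 and NFIL3, 2 of 16 (12.5%), both below 0 and both already counted in lists above. The medians of these 4 lists lay between -0.09 and 0.05.

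**Figure D4:**
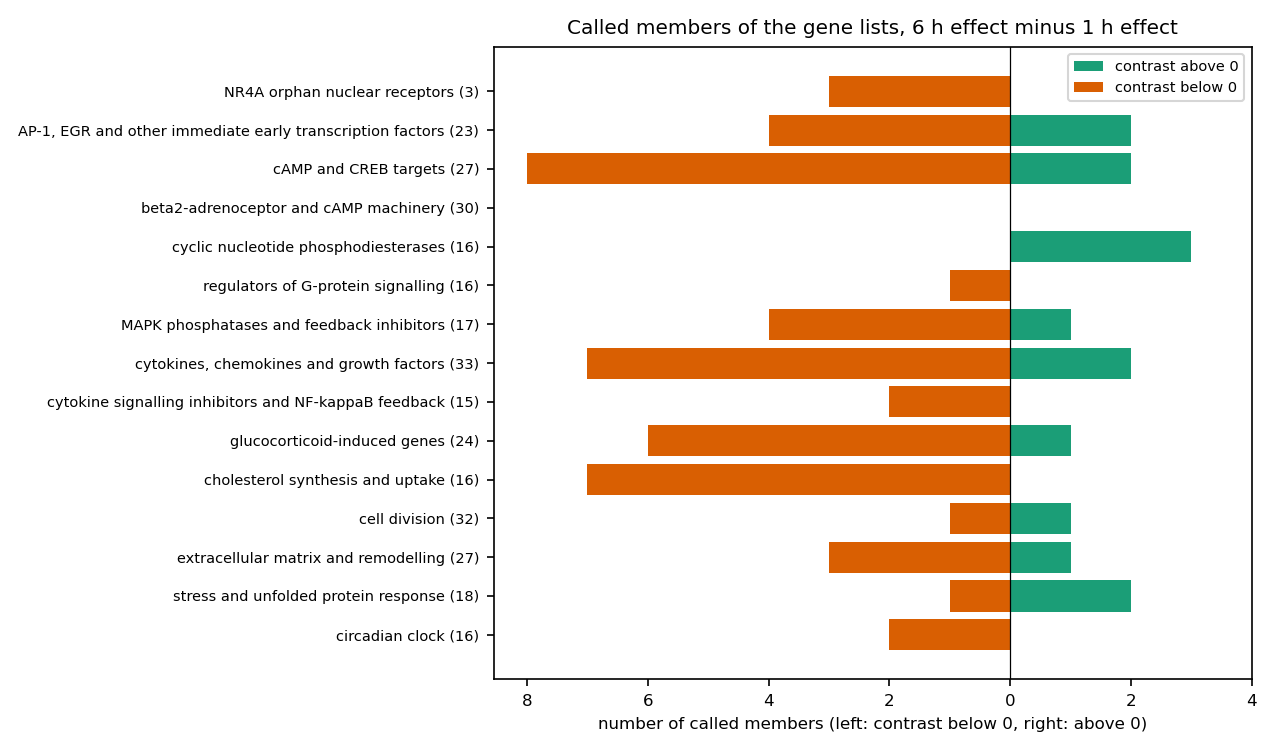
Number of members of each gene list (y axis, with the number measured in brackets) called in the 6 h minus 1 h contrast, to the left below 0 and to the right above 0. Cyclic AMP targets have 8 below 0 and 2 above 0, cholesterol genes 7 and 0, phosphodiesterases 0 and 3, and receptor machinery has none.

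Marker lists checked the cells. No marker of epithelial, leukocyte, endothelial or fibroblast and smooth muscle cells was called in the contrast, of 17, 11, 8 and 13 measured. Of all genes 2.34% were called, and lists this short can hold none at that share. Among epithelial markers 11 of 17 were above the median of all probe set values, 4.90, in each group. KRT18 averaged 10.93 ± 0.27 (SD, as for the markers below) in formoterol-treated cells and 11.09 ± 0.19 in untreated cells at 6 h. EPCAM was at 2.62 ± 0.12 and 2.61 ± 0.28, below the lower quartile. CDH1, E-cadherin, was at 4.34 ± 0.30 and 4.42 ± 0.38, and vimentin (VIM), a mesenchymal filament, at 12.98 ± 0.08 and 13.00 ± 0.11. Leukocyte markers lay below the lower quartile in 6 to 7 of 11, PTPRC at 2.00 ± 0.15 and 1.96 ± 0.16, and no endothelial marker averaged above the median. Of the fibroblast and smooth muscle markers, 6 of 13 averaged above the median in every group. The summed linear level of the epithelial markers was 5147 to 5707 in formoterol-treated cells and 5941 to 6265 in untreated cells at 6 h, and 5994 to 6674 and 6158 to 6851 at 1 h. The 6 h ranges do not overlap, and the part of this in the results was not tested. In such bulk samples of a single cell line, fewer cells with a marker and less of its RNA per cell cannot be told apart.

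The compared arrays had similar distributions, with medians between 4.88 and 4.93. A measure of RNA integrity, the difference of 3′ and 5′ actin probe sets, ran from 0.67 to 2.21 log2 units over these 16 arrays. By replicate 1 to 4 it was 1.90, 1.70, 0.94 and 0.98 in formoterol-treated cells, against 2.21, 1.24, 0.81 and 0.78 in untreated cells at 6 h. At 1 h it was 1.73, 0.98, 1.24 and 0.96 in formoterol-treated cells, against 1.54, 0.91, 0.71 and 0.67 in untreated cells. Replicate 1 had the highest value in each of these 4 groups, each formoterol array at 1 h lay above the untreated array of its number, and each untreated array at 6 h lay above that of its number at 1 h. The part of this in the results was not tested beyond leaving out the replicate 1 arrays. Without the replicate 1 arrays of every group, 254 genes were called in the contrast, against 424 with them, and 250 of the 254 were among the 424; fewer arrays also give a weaker test.

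The same comparison in cells that also had budesonide used 16 other arrays and shared none with the first. The same replicate numbers recur there, and whether they mark a shared culture or day is not known, so the 2 sets may not be independent. There the formoterol effect was taken over budesonide alone, and it differed between 6 h and 1 h in 466 genes (2.57%), 194 above 0 (1.07%) and 272 below 0 (1.5%). Of the 424 genes, 407 (96.0%) had the same sign in these arrays, against 62.6% of all 18132 genes, and 208 were called in the same direction, which is 49.1% of the 424 and 44.6% of the 466. None was called in the opposite direction. In 328 of the 424 the contrast was smaller in size with budesonide. The 424 had been selected on the first set of arrays, so a smaller size in the second carries that selection.

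The difference between the 2 contrasts itself passed the test in 21 genes (0.116%), 10 above 0 and 11 below 0, and 10 of the 21 were among the 424. PDE7B had log2 values of 6.78, 6.65, 6.35 and 6.43 in cells given budesonide and formoterol, against 4.55, 4.59, 4.03 and 4.35 in cells given budesonide alone at 6 h. The 1 h values were 3.58, 3.46, 3.96 and 3.33 in cells given budesonide and formoterol, against 3.81, 3.34, 3.61 and 3.76 in cells given budesonide alone. The groups were separate at 6 h with budesonide too, with an effect of 2.17 ± 0.17 at 6 h and -0.05 ± 0.17 at 1 h. The contrast with budesonide was 2.22 ± 0.23 and differed from that without it by -2.08 ± 0.33 (adjusted p = 0.000246). Budesonide alone averaged 4.38 ± 0.26 at 6 h, and untreated cells 3.54 ± 0.19.

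SMOC1 had 6.08, 5.66, 5.61 and 6.05 in cells given budesonide and formoterol, against 4.32, 4.33, 4.37 and 4.37 in cells given budesonide alone at 6 h. The SMOC1 arrays did not overlap. The contrast with budesonide was 1.35 ± 0.23, and it differed from that without budesonide by -2.06 ± 0.33 (adjusted p = 0.000246). SGK1 had 10.46, 10.47, 10.50 and 10.65 in cells given budesonide and formoterol, against 10.36, 10.41, 10.45 and 10.59 in cells given budesonide alone at 6 h. At 1 h its values were 12.60, 12.43, 12.63 and 12.51 in cells given budesonide and formoterol, against 11.41, 11.31, 11.51 and 11.40 in cells given budesonide alone. The groups of SGK1 overlapped at 6 h with budesonide and were separate at 1 h. Formoterol added 0.07 ± 0.12 at 6 h and 1.13 ± 0.12 at 1 h, the contrast was -1.07 ± 0.16, and it differed from that without budesonide by 1.43 ± 0.23 (adjusted p = 0.000266). DUSP1 behaved alike in sign, with a contrast of -0.77 ± 0.13 with budesonide and a difference of 0.83 ± 0.18 (adjusted p = 0.0304).

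The other 6 of the 10 were ANXA10, RAP1GAP2, SFRP1, SLC39A10, PID1 and PPP1R3B, listed because their difference was called. The late rises of ANXA10, RAP1GAP2, SFRP1 and SLC39A10 had contrasts of 0.27, -0.08, 0.07 and 0.18 with budesonide, against 1.58, 1.01, 0.62 and 0.98 without it. PID1, which interferes with insulin signalling, had 2.55 with budesonide and 0.94 without. PPP1R3B, a glycogen-targeting subunit, had -2.10 and -0.93. Outside the 424, LTBP1, a binding protein of latent TGF-beta, had a contrast of 2.40 with budesonide and 0.25 without, and RASD1, a Ras-related protein induced by glucocorticoids, had -2.58 and -0.65.

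**Figure D5:**
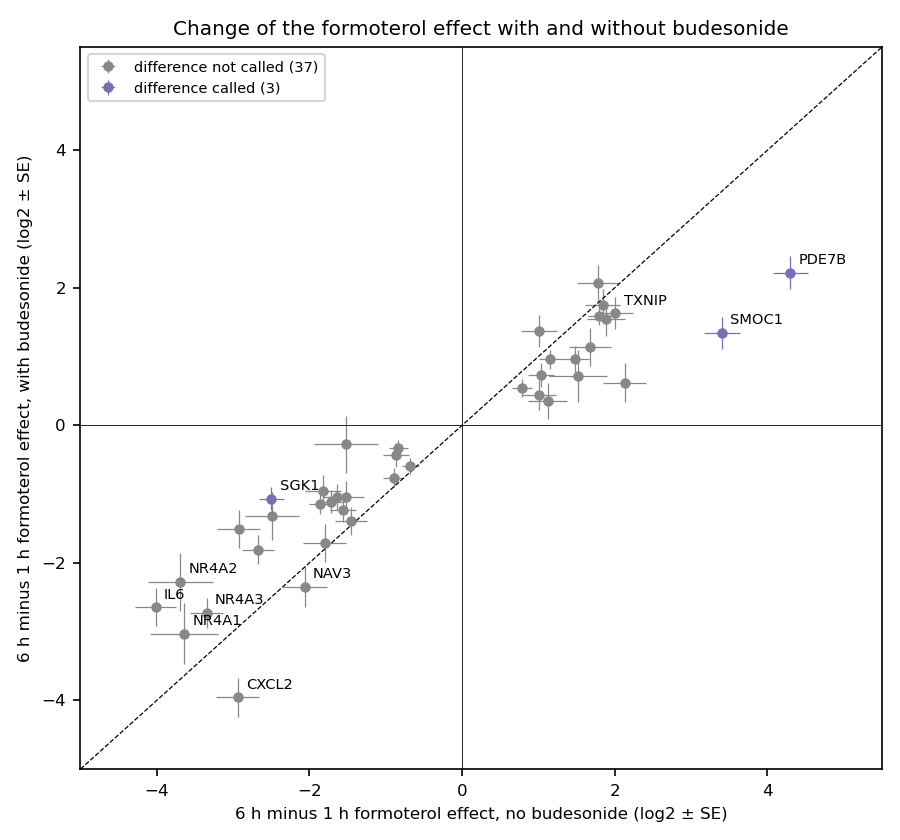
Contrast of the formoterol effect, 6 h minus 1 h (log2 ± SE), with budesonide (y axis) against without (x axis) for the 40 genes named by rule, from arrays that the axes do not share. The 3 genes whose difference was called are SGK1, PDE7B and SMOC1; the dashed line marks equal contrasts.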

How the data were processed

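RNA from BEAS-2B cells was hybridised to Affymetrix arrays. The authors deposited a log2 value for each probe set and array, made with RMA per the submitters' processing notes. RMA subtracts background, normalizes arrays and combines the probes of a set. The version of RMA, and whether all arrays were normalized together, are not given in the sources used here; a change shared by most genes could then go unseen. Arrays give no read depth.

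Of 49395 probe sets 44994 carried 1 symbol, 1832 several and 2569 none, and 44967 of the first were matched to current symbols through gene identifiers. A gene symbol stands for the gene's probe set of highest mean value, taken over all arrays, and 11735 of 18132 genes had more than 1. Of the 40 named genes 30 had several, which ran one way in 24 and not in EGR1, STEAP4, HDAC9, CRISPLD2, DLC1 and ARID5B.

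limma 3.58.1 in R 4.3.3 fitted 1 mean for each of 16 groups over 64 arrays, with 48 residual degrees of freedom and an intensity trend. Two-sided p-values were adjusted over all genes (Benjamini-Hochberg), and genes under 0.05 were called. The script was tested on simulated data. Named genes had a contrast of at least 1 log2 unit, a group mean at or above 4.90 and no overlap at the time of the larger effect. The 6 largest per kind and direction were taken, and up to 10 reversed genes of any size with the same level and overlap rules. Members of 19 gene lists (348 of 375 genes measured) could be named too. TFRC, ZNF182, ZNF45, LTBP1, RASD1 and 6 genes whose contrast differed with budesonide were named after their values were seen. The members and lists were chosen with earlier results of these data known. RefSeq promoter windows were searched over the 250 bases before the start. Alternatives covered the replicate number, samples fitted, trend, scaling, dim genes, probe sets, threshold and left-out arrays. Figures were drawn with matplotlib 3.10.9 and pandas 2.3.3 in Python 3.11.15.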

Additional observations from a re-analysis of the deposited data

Results flagged for a closer look

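The formoterol effect differed between 6 h and 1 h in 424 genes by the test of the difference itself. It also differed with and without budesonide in 3 of the 40 named genes. The contrast with budesonide minus that without was 1.43 for SGK1, -2.08 for PDE7B and -2.06 for SMOC1.

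In 14 of 160 groups of 4 arrays of the named genes, a single array stood apart from the other 3, and chance gives about 1 in 20. These groups come from the same 16 arrays and are not independent, and an excess was not tested. Formoterol-treated cells at 6 h had 7.58 for ISG20 on replicate 4 (others 7.65 to 7.65) and 9.86 for TUFT1 on replicate 1 (others 9.67 to 9.68). Untreated cells at 6 h had 5.49 for SNAI2 and 10.1 for DLC1 on replicate 4, 7.41 for CFAP251 on replicate 1 and 7.09 for ANKRD1 on replicate 3. Formoterol-treated cells at 1 h had 8.25 for BHLHE40 on replicate 3 and 5.82 for ISG20 and 3.41 for SCG2 on replicate 1. On replicate 4 of that group the values were 8.23 for NR4A2, 8.86 for RHOB and 6.78 for PCF11. Untreated cells at 1 h had 6.45 for BHLHE40 and 4.15 for NHS on replicate 4. Without the replicate 1 arrays of every group the contrast of SCG2 was 0.91 and no longer called.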

How the results depend on the processing

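Among 1040 values of the 40 named genes under 26 other settings, none changed sign, 1020 kept their call and 20 lost it, in GASK1B, CRISPLD2, SCG2, ARID5B, PCF11 and TUFT1. With the mean of all probe sets, GASK1B had -1.07, CRISPLD2 0.38, ARID5B -0.51, PCF11 0.42 and TUFT1 -0.50. The kind was kept by 29 of the 40 without the replicate 1 arrays of every group, by 31 with the mean of all probe sets or an adjusted p under 0.01, and by 33 to 40 under the other settings. Same-numbered arrays deviated together with correlations over 0.1 in 7 of 8 pairs within a time and 12 of 16 pairs across times (lowest 0.0559), and 14 of 16 arrays correlated best with their own number, which is a hint from the data and not the design. With the replicate block, called genes were 718 for 6 h minus 1 h, 1360 at 6 h, 147 in untreated cells, 790 with budesonide and 53 for the difference, and attenuated, delayed, growing and reversed genes were 33, 459, 21 and 19. With the replicate block within time, they were 1121 for 6 h minus 1 h, 1910 at 6 h, 557 at 1 h, 1241 with budesonide and 119 for the difference. The kinds were then 172 early transient, 40 attenuated, 725 delayed, 35 growing and 47 reversed. Untreated cells at 6 h minus 1 h could not be fitted there, because that difference lies between the blocks. All 424 genes stayed called under both blocks. At an adjusted p under 0.01, calls were 251 for 6 h minus 1 h, 568 at 6 h, 21 in untreated cells and 285 with budesonide, and 11 attenuated, 150 delayed, 4 growing and 4 reversed. Without the replicate 1 arrays of every group, which also leaves fewer arrays, calls were 254, 13 in untreated cells, 268 with budesonide and 7 for the difference, and 151 delayed, 5 growing and 2 reversed. The mean of all probe sets gave 4 growing and 2 reversed. The cause of these shifts was not tested.

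Leaving out 1 array at a time gave 356 to 424 called genes for 6 h minus 1 h, 716 to 919 at 6 h, 196 to 249 at 1 h, 23 to 39 in untreated cells, 398 to 450 with budesonide and 18 to 23 for the difference. Early transient genes were 68 to 91, attenuated 15 to 20, delayed 213 to 279, growing 6 to 9 and reversed 4 to 9. Reversed genes were 5 without formoterol replicate 1, 3 or 4 or untreated replicate 1 at 6 h or formoterol replicate 2 at 1 h, and 4 without formoterol replicate 3 or untreated replicate 4 at 1 h. In untreated cells 23 were called without replicate 2 at 6 h, and 25 without replicate 1 or 3 at 1 h.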
